A study of Homo sapiens with 8 samples.

Results

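The outermost megabase of the autosome arms was described by 6538 tiles of 1000 bases, out of 105631 autosomal tiles in all. A tile entered with at least 3 CpGs that each had at least 5 reads in every library, and counted as an end tile within 1 Mb of the first or last CpG listed for its chromosome. The first-CpG ends of chromosomes 13, 14, 15, 21 and 22 were left out, which gave 39 arm ends with 8 to 455 tiles each and a median of 147. The first listed CpG lay between position 5675 on chromosome 17 and position 119438 on chromosome 6 (genome build hg19), so the windows start close to the chromosome starts of that build. Each end was set against the 10858 tiles that lie 5 to 10 Mb from the same ends, called inner tiles here.

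Methylation had been measured by reduced representation bisulfite sequencing (RRBS), in which bisulfite-treated fragments rich in CpGs are sequenced, in 8 libraries of HUES64, an established human embryonic stem cell line. Per the labels, all of them carry knockouts of DNMT3A and DNMT3B, and each is the only library of its passage, which was 6, 7, 8, 11, 13, 17, 27 or 28; unedited cells were not analysed here. Whether the passages follow 1 culture or 1 clone is not in the labels, so a p-value here reflects only how these libraries scatter around a trend, and that scatter may be technical. The comparison asks how methylation near the arm ends changed over culture, relative to sequence farther in on the same arm.

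DNMT3A and DNMT3B add methylation to CpGs that carry none, and DNMT1 copies the pattern of the old strand to the new one when DNA replicates. In cells without the first pair, methylation that DNMT1 fails to copy cannot be set again by them. The ends of human chromosomes carry telomere repeats, bordered by subtelomeric duplications shared between chromosomes and then by gene-rich, CpG-rich sequence; subtelomeric repeats are known as targets of DNMT3B, whose mutation in the ICF syndrome leaves them undermethylated.

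Of the promoters placed within the end windows, 3 are printed here because they carry opposite outcomes: MOV10L1 (chromosome 22) and FTCD (chromosome 21) started highly methylated and fell, and CETN1 (chromosome 18) started as high and stayed high. Each runs 5′ to 3′ along the gene's strand over 300 bases, 250 before and 50 after the annotated start, as given by RefSeq for build GRCh38.p14. Capitals mark the CpGs that had at least 5 reads in all 8 libraries, whose levels are given with the other promoters further on.
MOV10L1: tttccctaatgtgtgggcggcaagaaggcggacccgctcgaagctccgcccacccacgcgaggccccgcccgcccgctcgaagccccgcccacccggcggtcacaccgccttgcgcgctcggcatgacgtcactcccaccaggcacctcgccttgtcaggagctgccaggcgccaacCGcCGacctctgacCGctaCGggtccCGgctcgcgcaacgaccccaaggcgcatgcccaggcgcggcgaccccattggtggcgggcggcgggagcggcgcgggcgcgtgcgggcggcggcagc
FTCD: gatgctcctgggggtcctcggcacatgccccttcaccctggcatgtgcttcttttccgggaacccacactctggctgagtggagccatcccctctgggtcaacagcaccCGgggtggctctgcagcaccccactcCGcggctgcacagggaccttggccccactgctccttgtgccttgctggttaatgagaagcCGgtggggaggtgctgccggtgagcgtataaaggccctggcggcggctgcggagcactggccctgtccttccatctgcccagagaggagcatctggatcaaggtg
CETN1: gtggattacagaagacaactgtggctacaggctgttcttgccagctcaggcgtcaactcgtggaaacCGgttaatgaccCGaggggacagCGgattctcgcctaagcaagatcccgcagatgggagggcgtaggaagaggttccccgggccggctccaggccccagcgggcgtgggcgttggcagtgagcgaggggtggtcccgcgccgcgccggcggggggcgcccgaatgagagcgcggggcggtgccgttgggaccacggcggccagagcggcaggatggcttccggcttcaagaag

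Summed over listed CpGs, the libraries held 19898423 reads (passage 11) to 44599588 reads (passage 6), with a median coverage of 13 reads per CpG at passage 6 and 6 to 8 elsewhere. In the tiles, coverage averaged 13.2 to 28.7 reads per CpG at the ends and 11.96 to 25.5 in inner tiles over the libraries. The end megabases held more listed CpGs, a median of 4039 per Mb against 1093 in the inner windows, and the end was the denser of the pair at 37 of the 38 arm ends with at least 10 matched tiles; 14q, and 3p with fewer tiles, were less dense than their inner windows. End tiles had a median of 12 listed CpGs, against 9 in inner tiles. The files hold no measure of the DNMT3A or DNMT3B transcript, so the knockouts were not checked here.

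Methylation at the arm ends fell in every library after the first. The mean level of the 6538 end tiles was 53.2%, 52.9% and 52.2% over passages 6 to 8 in turn, then 48.9%, 48.7% and 46.0% over passages 11, 13 and 17, and 37.8% and 36.3% over passages 27 and 28. The slope was -0.760 ± 0.0260 points per passage (SE over 8 libraries; r = -0.996, exact permutation p = 2.48e-05, adjusted p = 0.000186; rho = -1, exact permutation p = 4.96e-05), where 2.48e-05 is the smallest p that the 40320 orders of 8 libraries allow for r. With the 2 libraries farthest from the median passage left out, those of passages 27 and 28, r was -0.986 and the slope -0.679 (exact permutation p = 0.00139, n = 6). Adjusted values here run over 15 pooled slopes. Before any matching, end tiles fell faster than inner tiles, by -0.203 ± 0.00969 points per passage (SE over 8 libraries; two-sided exact permutation p = 7.44e-05, adjusted p = 0.000279).

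The faster fall remained when tiles of equal starting level and CpG density were set against each other. Each end tile was compared with the mean of the inner tiles of the same arm end in the same class of starting level, the mean of passages 6 to 8, and of listed-CpG number. This was possible for 6077 end tiles, with 17.4 listed CpGs on average against 16.7 in their matched inner tiles; the other 461 had no such inner tile. The matched end tiles averaged 37.2% at passages 27 and 28 and 52.6% at passages 6 to 8, and the matched inner tiles 40.9% and 52.7%. End tiles thus kept 70.7% of their starting level, and matched inner tiles 77.6%.

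The gap between them was present from passage 11 on and was widest in the latest libraries. In passage order, end minus inner was 0.0607, -0.125, -0.272, -1.23, -1.05, -1.61, -3.59 and -3.81 points. Values at passages 6 to 8 lie near 0 by construction, since those libraries set the classes, so they cannot date the start of the gap. The slope was -0.171 ± 0.00882 points per passage (SE over 8 libraries; r = -0.992, exact permutation p = 0.000149, adjusted p = 0.000372; rho = -0.976, exact permutation p = 0.000397), and without passages 27 and 28 r was -0.952 and the slope -0.155 (exact permutation p = 0.00556, n = 6). With classes set on passage 6 alone and the other 7 libraries fitted, the slope was -0.174 (exact permutation p = 0.000397). The change between passages 6 to 8 and passages 27 and 28, end minus inner, is called the extra change and was -3.59 points. This holds against sequence 5 to 10 Mb in, not against all sequence: against tiles 2 to 5 Mb from the ends the matched slope was 0.0220 (exact permutation p = 0.000570, n = 8), so that the end tiles lost less. The size also moved with other choices: the matched slope was -0.0826 with a minimum of 10 reads (exact permutation p = 0.000769, n = 8), -0.108 in the outer 0.5 Mb (exact permutation p = 0.000273, n = 8) and -0.268 against tiles 10 to 15 Mb in (exact permutation p = 9.92e-05, n = 8).

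**Figure D1:**
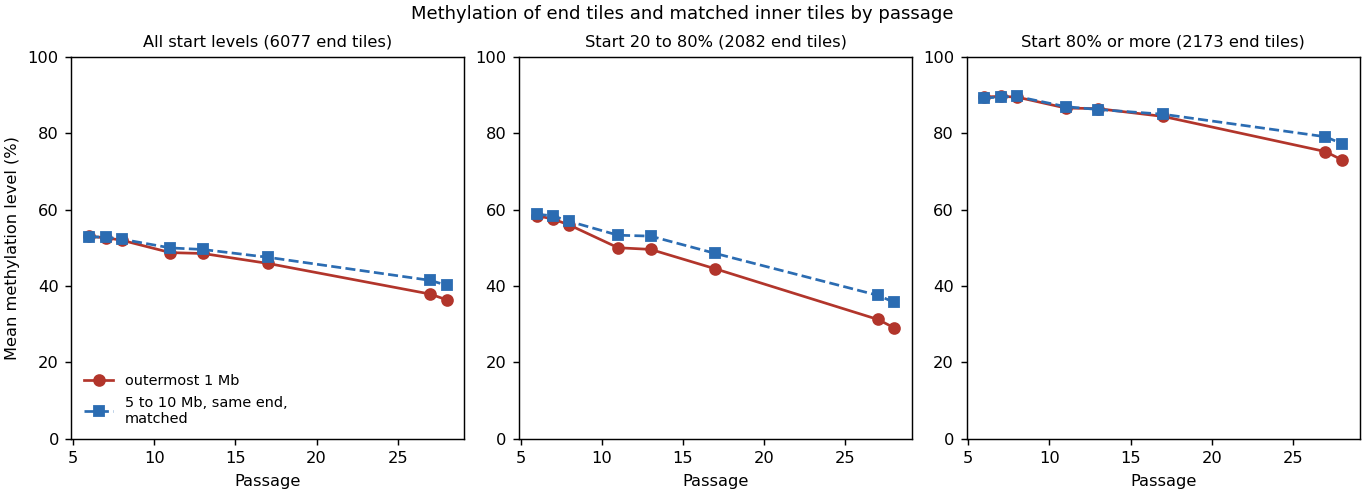
Mean methylation level (%) by passage for end tiles (red circles) and inner tiles of the same arm end and class (blue squares), for all 6077 matched end tiles, the 2082 that started at 20 to 80% and the 2173 that started at 80% or more. Each point is 1 library. The lines part most in the tiles of intermediate start, and in those of high start they part only at passages 27 and 28.

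The extra loss depended on where a tile started. Tiles that started at 20 to 80% showed it from passage 11 on, the first library that did not set the classes. Tiles that started at 80% or more showed it in the last pair of libraries. In the 2082 tiles of intermediate start, end minus inner was -0.368, -0.844, -0.949, -3.28, -3.48, -4.04, -6.32 and -6.69 points in passage order. Their end tiles stood at 30.2% at passages 27 and 28 against 57.3% at passages 6 to 8, and the matched inner tiles at 36.7% against 58.1%. The slope of the difference was -0.271 ± 0.0268 points per passage (SE over 8 libraries; two-sided exact permutation p = 2.48e-05, adjusted p = 0.000186).

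In the 2173 tiles that started at 80% or more, end minus inner ran between -0.574 and 0.294 points through passage 17, then stood at -3.89 at passage 27 and -4.24 at passage 28. End tiles stood at 74.2% at passages 27 and 28 against 89.6% at passages 6 to 8, and inner tiles at 78.2% against 89.5%. The slope was -0.204 ± 0.0287 (SE over 8 libraries; two-sided exact permutation p = 0.00255, adjusted p = 0.00348), but -0.0560 over passages 6 to 17 (exact permutation p = 0.147, n = 6) and -0.0747 with a minimum of 10 reads (exact permutation p = 0.0772, n = 8). In finer classes of start, the extra change was -0.260 points under 10%, -1.52 at 10 to 20%, -2.33 at 20 to 40%, -4.67 at 40 to 60%, -7.70 at 60 to 80%, -6.59 at 80 to 90% and -1.67 at 90% or more. In points, the extra change was most negative in the classes from 60 to 90%, and tiles of low start had few points to lose. As a share of the starting level, end and inner tiles kept 34.3% and 41.4% for starts under 20%. The shares were 52.6% and 63.2% for starts of 20 to 80%, and 82.8% and 87.4% for starts of 80% or more.

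By CpG density, the extra loss in points at the 5-read minimum was smallest in the densest tiles, and this order turned with a minimum of 10 reads. The extra change was -3.36 points in the 2386 tiles with 3 to 9 listed CpGs, -5.26 in the 2130 with 10 to 19, -2.60 in the 866 with 20 to 34 and -0.494 in the 695 with 35 or more. The end tiles of these classes started at 64.2%, 56.9%, 41.1% and 13.4% in the same order, so the densest had few points to lose. They kept 74.2%, 66.7%, 66.6% and 81.1% of the starting level, and matched inner tiles 79.5%, 76.1%, 72.5% and 84.7%. The slope in the densest class was -0.0266 ± 0.00998 (SE over 8 libraries; two-sided exact permutation p = 0.0374, adjusted p = 0.0400), and its sign turned with finer classes, to 0.00232. It missed the threshold without passage 11 (-0.0260), 17 (-0.0264) or 27 (-0.0176), with exact permutation p of 0.0687, 0.0661 and 0.180 over 7 libraries. With a minimum of 10 reads the slope was -0.0617 in the densest class (exact permutation p = 0.000546, n = 8), against -0.0141 with 20 to 34 listed CpGs (exact permutation p = 0.551, n = 8), -0.169 with 10 to 19 (exact permutation p = 0.000372, n = 8) and -0.0383 with 3 to 9 (exact permutation p = 0.148, n = 8).

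Within the megabase, the outermost stretch lost least. In the 391 matched tiles within 125 kb of the end the extra change was 0.318 points, with a slope of 0.0122 ± 0.0168 (SE over 8 libraries; two-sided exact permutation p = 0.470, adjusted p = 0.470). That slope depended on what it was set against: it was 0.171 against the inner tiles of all arm ends in the same class (exact permutation p = 0.00104, n = 8), 0.197 against tiles 2 to 5 Mb in (exact permutation p = 0.00159, n = 8) and -0.0645 against tiles 10 to 15 Mb in (exact permutation p = 0.0151, n = 8). The extra change was -1.73 points in 503 tiles at 125 to 250 kb, -3.08 in 1532 tiles at 250 to 500 kb and -4.48 in 3651 tiles at 500 to 1000 kb, where the slope was -0.214 ± 0.0110 (SE over 8 libraries; two-sided exact permutation p = 0.000124, adjusted p = 0.000372). Set directly against tiles at 500 to 1000 kb of the same arm end and class, the 856 matched tiles of the outer 250 kb fell more slowly, by 0.118 ± 0.0165 points per passage (SE over 8 libraries; two-sided exact permutation p = 0.000595, adjusted p = 0.000992). The difference was 0.0317 with a minimum of 10 reads (exact permutation p = 0.215, n = 8). At 125 to 250 kb the slope of -0.0846 missed the threshold without passage 27 (-0.0722) or 28 (-0.0735), each with an exact permutation p of 0.126 over 7 libraries.

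The tiles closest to the end also started higher. The 465 tiles within 125 kb averaged 51.8% at passages 27 and 28 against 61.2% at passages 6 to 8, and the 3914 tiles at 500 to 1000 kb 34.3% against 51.6%. The larger extra loss did not stop at 1 Mb. It was -4.57 points at 1 to 2 Mb, -4.62 at 2 to 3 Mb and -2.54 at 3 to 5 Mb, and the extra change was 1.28 at 10 to 20 Mb. The 199 tiles in the last 25 kb inside the limit of 1000 kb stood at 32.3% at passages 27 and 28 against 49.5% at passages 6 to 8, and the 203 tiles in the first 25 kb outside it at 28.9% against 48.5%.

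**Figure D2:**
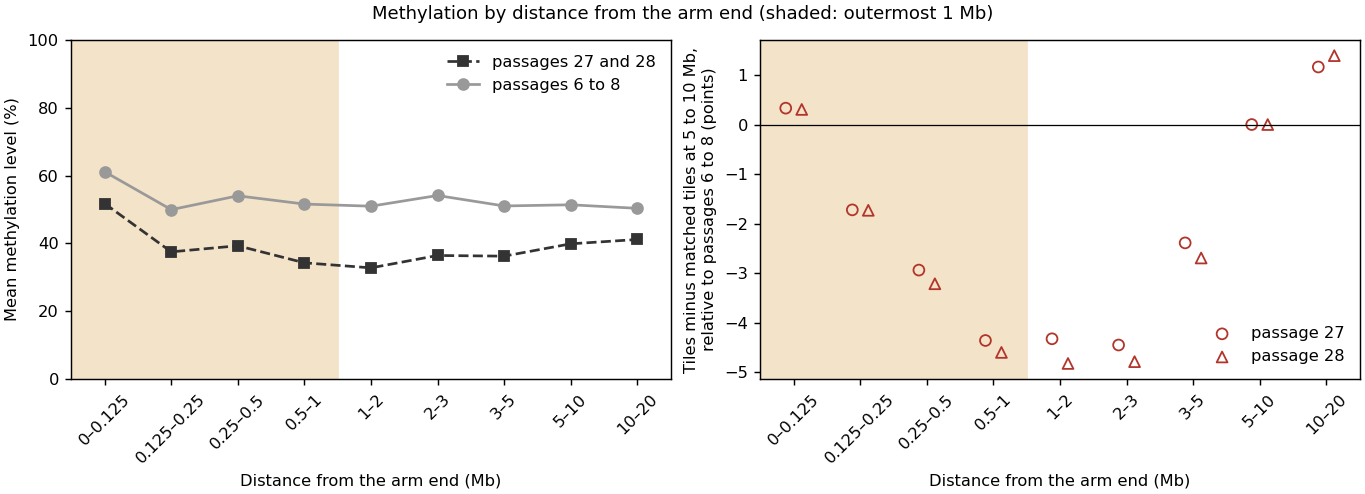
Left, mean methylation level (%) of tiles by distance from the arm end (Mb), at passages 27 and 28 (black squares) and at passages 6 to 8 (grey circles). Right, tiles minus matched tiles at 5 to 10 Mb, in points relative to passages 6 to 8, for passage 27 (circles) and passage 28 (triangles); the 5 to 10 Mb bin is 0 by construction, the bins from 0.5 to 3 Mb lie lowest and the bin within 0.125 Mb lies above 0.

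Fitted tile by tile, losses at the ends far outnumbered gains. Of 5363 end tiles tested, 2686 (50.1%) lost methylation with passage, against 34% of the 78387 autosomal tiles tested, and 6 (0.112%) gained it, against 0.166%. With a minimum of 10 reads per CpG, losses made up 53.1% of 1370 tested end tiles against 47.6% of all, and with 20 reads 17.6% of 125 against 23%. A call needed an adjusted p under 0.05 in a quasi-binomial regression on passage with dispersion moderated by limma, and a fitted change of at least 10 points. For the called gain on 10q the fitted change was larger than any level measured in that tile. The median fitted change of the lost end tiles was -32.8 points, with quartiles of -47.2 and -22.2. Among the 4831 tested end tiles with a match, 50.1% lost methylation, against 38.7% of inner tiles weighted to the same classes. End tiles held a median of 6 kept CpGs and inner tiles 4, and the part of this in the shares was not tested.

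Most tiles that were high at the start were still above 20% at the last passages. At passages 27 and 28, 1153 of the 2312 end tiles with a start of 80% or more had kept such a level, and 68 stood under 20%. Of 3774 such inner tiles, 2042 had kept it and 38 stood under 20%. Of 37417 such tiles over all autosomes, 21479 had kept it and 358 stood under 20%. Another 1626 end tiles (24.9%) started under 10%, against 28.9% of inner tiles.

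The arm ends differed widely among themselves. Of the 38 with enough matched tiles to test, 30 had a negative and 8 a positive slope of end minus inner, and the extra change ran from -14.1 points at 6q to 12.8 points at 14q with a median of -2.12. The fall was faster than in the inner tiles at 20 ends (52.6%) and slower at 2 (5.26%), by exact permutation with adjustment over the 38 ends. The p ends were negative in 14 of 16 and the q ends in 16 of 22, with median extra changes of -2.39 and -1.84 points. The 3p end, with 8 tiles, was not tested.

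Against tiles 5 to 10 Mb in, the 6q end had the most negative slope. Its 102 matched end tiles averaged 55.1%, 53.7%, 53.1%, 48.1%, 48.9%, 44.0%, 32.2% and 30.5% in passage order, and the inner tiles 55.0%, 54.0%, 52.4%, 51.3%, 51.7%, 50.03%, 45.2% and 45.4%. The slope of the difference was -0.683 ± 0.0397 points per passage (SE over 8 libraries; two-sided exact permutation p = 0.000298, adjusted p = 0.00188). The end tiles were below the inner tiles in all 5 libraries from passage 11 on. The rank depended on the setting. The slope at 6q was less negative than that at 8p against tiles 2 to 5 Mb in (-0.266 and -0.586) and with finer classes (-0.476 and -0.638). It was less negative than that at 18q with at least 5 CpGs (-0.587 and -0.695) and against tiles 10 to 15 Mb in (-0.618 and -0.709). With a minimum of 10 reads, 6q had too few tiles to be tested. Over passages 6 to 17 its slope of -0.586 missed the threshold (adjusted exact permutation p = 0.0568, n = 6).

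The 18q, 8p and 11p ends followed. At 18q, 203 end tiles stood at 33.3% at passages 27 and 28 against 52.3% at passages 6 to 8, and inner tiles at 44.5% against 52.1%, with a slope of -0.538 ± 0.0338 (SE over 8 libraries; exact permutation, adjusted p = 0.00242). At 8p, 77 end tiles stood at 39.6% against 59.6%, and inner tiles at 51.4% against 60.2%, with a slope of -0.534 ± 0.0385 (SE over 8 libraries; exact permutation, adjusted p = 0.000628). At 11p, 331 end tiles stood at 32.4% against 49.7%, and inner tiles at 43.9% against 50.4%, with a slope of -0.529 ± 0.0327 (SE over 8 libraries; exact permutation, adjusted p = 0.00118). These 3 ends, set level with their inner tiles at the start by the matching, finished more than 10 points below them. With a minimum of 10 reads the slopes were -0.166 at 18q (adjusted exact permutation p = 0.155, n = 8) and -0.0544 at 11p (adjusted exact permutation p = 0.162, n = 8), and against tiles 2 to 5 Mb in, that of 11p was -0.0397 (adjusted exact permutation p = 0.269, n = 8). Without the 6q, 18q, 8p and 11p ends, a choice made after the values were seen, the matched slope over the remaining ends was -0.121 (exact permutation p = 0.000198, n = 8).

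The other 16 ends that fell faster lay between. Extra changes were -9.25 points at 13q and -9.13 at 21q, between -6.73 and -3.96 at 15q, 3q, 7p, 5p, 17q, 10p, 11q and 16p, and between -2.98 and -1.37 at 22q, 20p, 17p, 20q, 2q and 8q. The 16p end, whose 389 matched tiles are among the most numerous, had an end minus inner of -5.12 points at passage 28 and of -4.36 already at passage 11 (slope over all libraries -0.181, adjusted exact permutation p = 0.0451, n = 8). At 21q end minus inner was -0.247 points at passage 11 and -9.29 points at passage 28.

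At 14q and 7q the end lost less. The 14q end, which holds the immunoglobulin heavy chain genes, had only 27 tiles, at 78.9%, 78.7%, 76.1%, 79.0%, 76.1%, 75.6%, 69.4% and 64.8% in passage order, against 78.7%, 78.9%, 76.6%, 74.4%, 73.9%, 69.1%, 56.0% and 53.0% in its inner tiles. The slope was 0.608 ± 0.0610 (SE over 8 libraries; exact permutation, adjusted p = 0.00314). At 7q, 100 end tiles stood at 70.5% at passages 27 and 28 against 78.9% at passages 6 to 8, and inner tiles at 64.0% against 78.2%, with a slope of 0.272 ± 0.0405 (SE over 8 libraries; exact permutation, adjusted p = 0.00314). The sign at 7q turned against tiles 10 to 15 Mb in, with a slope of -0.0582 (exact permutation adjusted p = 0.0175, n = 8), while that of 14q was 0.357 there (exact permutation adjusted p = 0.0249, n = 8). The 14q end had too few tiles to be tested with a minimum of 10 reads or with at least 5 CpGs. Over passages 6 to 17 neither end passed, at 0.616 for 14q (exact permutation adjusted p = 0.0568, n = 6) and 0.259 for 7q (exact permutation adjusted p = 0.15, n = 6). Next in order came 18p at 0.0696 ± 0.0506 (SE over 8 libraries; exact permutation, adjusted p = 0.297) and 19q at 0.0498 ± 0.0316 (SE over 8 libraries; exact permutation, adjusted p = 0.261), which did not pass the test. Without passage 27 the slope at 19q was 0.0955 and passed it (exact permutation, adjusted p = 0.0145, n = 7). It also passed against tiles 2 to 5 Mb in, at 0.225 (exact permutation, adjusted p = 0.00188, n = 8), and 10 to 15 Mb in, at 0.218 (exact permutation, adjusted p = 0.00105, n = 8). Its sign turned, without passing, with a minimum of 10 reads (-0.142; exact permutation, adjusted p = 0.0624, n = 8), in tiles of 5 or more CpGs (-0.0390) and without the first 3 libraries (-0.00163). At 18p the slope passed against tiles 10 to 15 Mb in, at 0.129 (exact permutation, adjusted p = 0.0136, n = 8).

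The share of tiles called as losses was lowest at 4q, 3p, 9p, 19q and 18p, among the 39 arm ends. Over all tested autosomal tiles it was 34%. At 4q, all 65 end tiles averaged 77.6% at passages 27 and 28 against 81.9% at passages 6 to 8, and 4 of 65 tested tiles (6.15%) lost methylation. At 19q, 147 end tiles stood at 42.0% against 47.2%, and 14 of 100 tested tiles (14%) lost methylation. Losses were 1 of 8 tested tiles at 3p, 5 of 39 (12.8%) at 9p and 8 of 46 (17.4%) at 18p. All tiles of the 9p end averaged 38.5% against 43.7%, and those of the 18p end 53.7% against 58.8%. By contrast, 63 of 90 tested tiles (70.0%) were lost at 6q and 184 of 295 (62.4%) at 7p. Among tiles with a match, the small falls at 4q, 9p, 19q and 18p were not particular to the outermost megabase. Matched end and inner tiles changed by -6.32 and -5.04 points at 4q, and by -4.21 and -4.40 at 9p. At 4q this covers only 27 of the 65 end tiles, and the rest had no inner tile to be compared with. Matched end and inner tiles changed by -5.16 and -6.28 points at 19q, and by -5.86 and -7.42 at 18p. At 3p, with 8 tiles, the changes were -7.90 and -11.3 points.

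**Figure D3:**
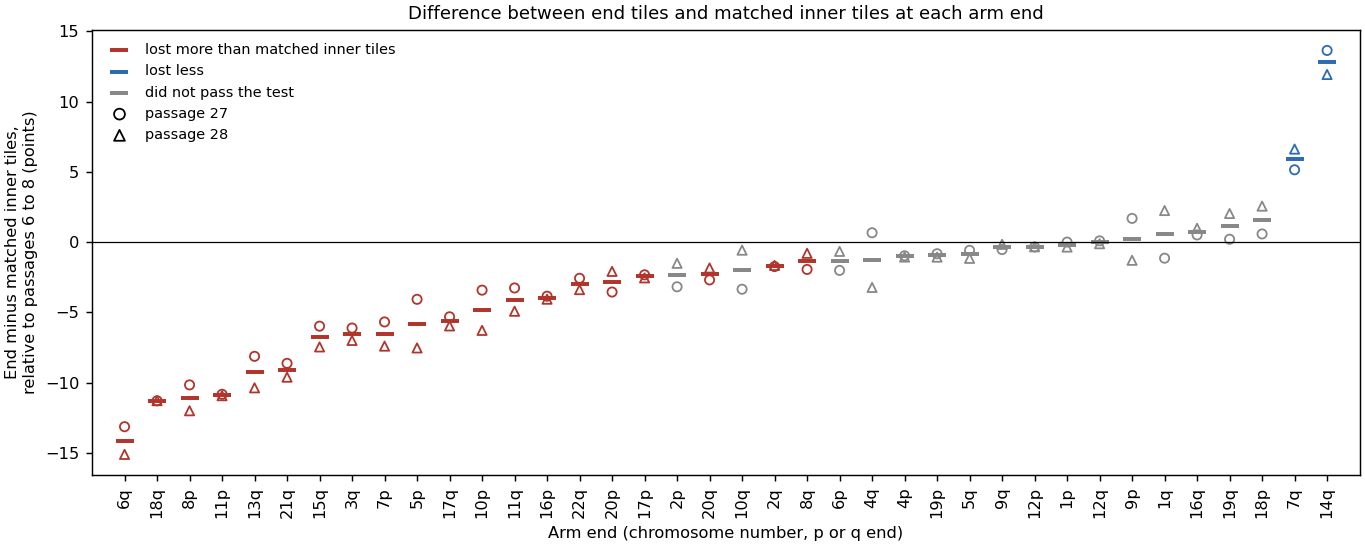
End minus matched inner tiles at each of the 38 tested arm ends, in points relative to passages 6 to 8, for passage 27 (circles) and passage 28 (triangles); bars give their mean. Red ends fell faster than their inner tiles, blue ends more slowly, and grey ends did not pass the test; 6q lies lowest at -14.1 and 14q highest at 12.8.

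The p and q ends of a chromosome often differed. Of the 16 chromosomes with both ends tested, the slopes of the p and q ends differed on 7 (43.8%) by exact permutation with adjustment over the 16. They differed on 4 without passage 17 or without passage 28, and on 3 of 8 with a minimum of 10 reads. The extra change at the p end was higher than at the q end on chromosomes 6 (-1.34 against -14.1 points), 17 (-2.44 against -5.64) and 18 (1.57 against -11.3). It was lower on chromosomes 5 (-5.81 against -0.873), 7 (-6.55 against 5.88), 8 (-11.1 against -1.37) and 11 (-10.9 against -4.10).

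Ends far denser in CpGs than their inner window tended to lose more relative to their matched inner tiles. The extra change holds the fall of the inner tiles as well as that of the end tiles. Matched inner tiles changed by -3.96 points at 3q and by -23.6 at 14q. The part of each in the correlation below was not tested. Across the 38 arm ends, the log2 ratio of listed CpGs per Mb, end over inner, correlated with the extra change at r = -0.597 and rho = -0.580. This is a description across ends that share the 8 libraries. The 14q end, which lost less than its inner tiles by the widest margin, had 907 listed CpGs in its megabase against 1627 per Mb in its inner window. Tiles were matched on listed CpGs per tile, not on the density of the surrounding megabase.

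The 6 called losses with the largest fall stood at 0 to 5.31% at passages 27 and 28, against 84.0 to 89.1% at passages 6 to 8. The largest was chr10:679001-680000 (hg19), 606 kb from the 10p end, with 4 CpGs: it stood at 86.0%, 87.1%, 90%, 97.3%, 89.3% and 87.8% through passage 17, and at 0% at passages 27 and 28. The late value rests on 136 reads, none methylated, which allows a level of up to 2.21%. Its 1 neighbouring tile within 5 kb stood at 15.5% at passages 27 and 28 against 98.0% at passages 6 to 8.

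A fall confined to the last pair of libraries recurred. At chr7:539001-540000 on 7p (3 CpGs) the level was 95.8% at passage 17, 2.22% at passage 27 and 0% at passage 28. At chr19:58868001-58869000 on 19q (13 CpGs), the tile with most CpGs, it was 88.7%, 88.3%, 90.2%, 69.1%, 75.9%, 87.3%, 7.43% and 3.19% in passage order. Its late mean of 5.31% had a 95% Wilson interval of 3.69 to 7.46% over 551 reads, and its 4 neighbours fell less, to 35.3% at passages 27 and 28 against 56.9% at passages 6 to 8. At chr19:940001-941000 on 19p (3 CpGs) it was 75% at passage 17, 0% at passage 27 and 1.96% at passage 28. These 4 tiles showed no called change over passages 6 to 17, where the fitted changes were 3.46, 7.55, -8.52 and -8.17 points. Intervals and limits cover counting error only.

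On 8p the fall began earlier. The tile chr8:736001-737000 on 8p (3 CpGs) stood at 77.2%, 87.1%, 93.2%, 85.2%, 68.2%, 25.9%, 0% and 2.63% in passage order. Over passages 6 to 17 its fitted change was -48.0 points (limma-moderated quasi-binomial fit, adjusted p = 0.0138). The tile chr4:711001-712000 on 4p (4 CpGs) stood at 79.1%, 86.5%, 86.5%, 36.1%, 57.1%, 73.3%, 0% and 2.78%, so that its libraries between did not fall in order. Its fitted change over passages 6 to 17, -26.4 points, was not called (same fit with limma, adjusted p = 0.252). Its 5 neighbours stood at 64.8% at passages 27 and 28 against 89.6% at passages 6 to 8. Fitted changes of the 6 losses ran from -90.8 to -77.9 points, with adjusted p from the limma-moderated quasi-binomial fit of 9.57e-05 or less.

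**Figure D4:**
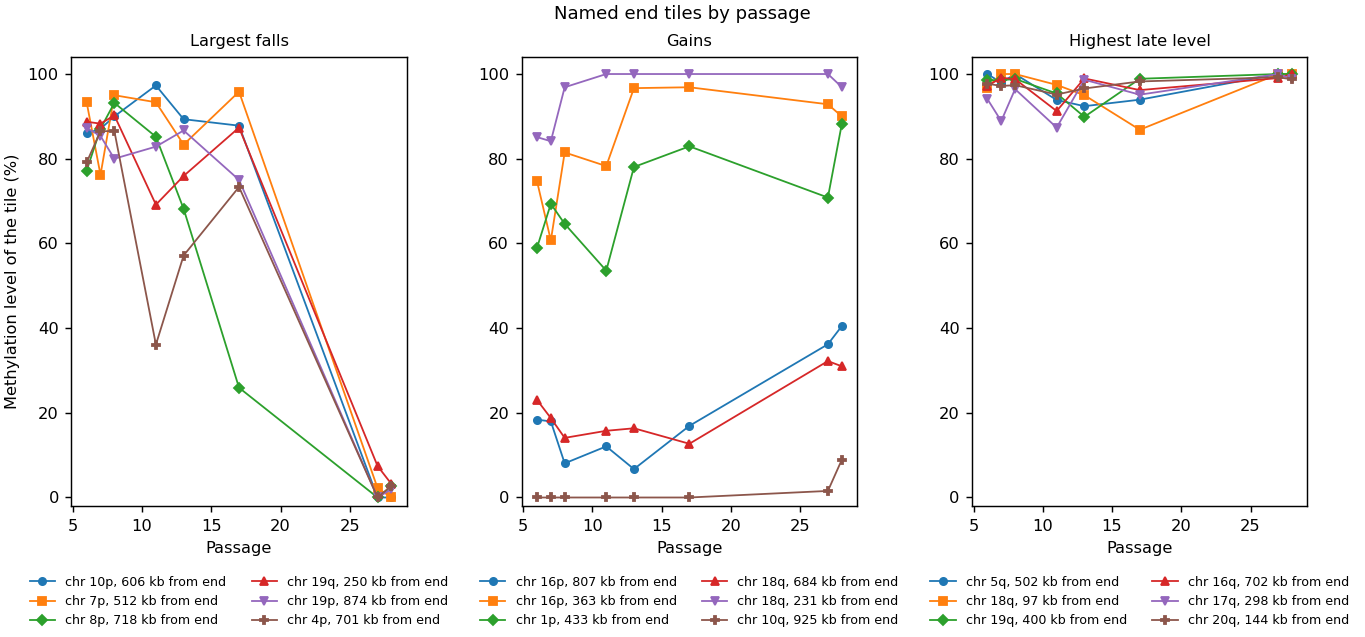
Methylation level (%) by passage of the 6 end tiles with the largest called fall, the 6 called gains and the 6 tiles with the highest level at passages 27 and 28 among those of 5 or more CpGs and a start of 80% or more. Each point is 1 library, and keys give the arm end and the distance from it in kb. Falls concentrate between passages 17 and 27, gains are smaller, and the kept tiles stay at 86.8% or more throughout.

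Each of the 6 called gains lost its call when some library was left out. The largest rise was at chr16:867001-868000 on 16p (9 CpGs), at 18.4%, 18.0%, 8.06%, 12.1%, 6.70%, 16.9%, 36.2% and 40.5% in passage order, a fitted change of 23.4 points (limma-moderated quasi-binomial fit, adjusted p = 0.00253). Without passage 28 the change was 16.8 points (same fit with limma, adjusted p = 0.0706), and over passages 6 to 17 it was -5.19. Its 4 neighbours within 5 kb went the other way, with 28.8% at passages 27 and 28 against 38.0% at passages 6 to 8. At chr18:77331001-77332000 on 18q (17 CpGs) the level was 32.2% at passage 27 and 31.0% at passage 28, against 12.7 to 23.05% through passage 17, and over passages 6 to 17 the fitted change was -8.45. The call there ended without passage 7, 8, 11, 27 or 28, with changes of 8.17 to 11.96 points.

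The other gains started high or near 0. At chr10:134599001-134600000 on 10q (12 CpGs) no methylated read was found through passage 17. The level was 1.55% at passage 27 and 8.89% at passage 28. The fitted change over all libraries, 15.4 points, was larger than any level measured in this tile, so the call overstates its rise. Without any 1 of passages 6 to 17 its fitted change was 8.89 points, below the limit for a call. The remaining gains lay at chr16:423001-424000 on 16p, chr1:443001-444000 on 1p and chr18:77784001-77785000 on 18q, with 3 CpGs each. They stood at 91.4%, 79.5% and 98.5% at passages 27 and 28, against 72.3%, 64.3% and 88.7% at passages 6 to 8. Calls ended without passage 6, 7 or 27 for the tiles on 16p and 18q, and without passage 6, 8, 11, 17 or 28 for that on 1p.

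At the other extreme, 6 tiles of at least 5 CpGs remained near full methylation. Levels at passages 27 and 28 were 100% at chr5:180397001-180398000 (5q), chr18:77918001-77919000 (18q) and chr19:58718001-58719000 (19q). They were 99.5% at chr16:89582001-89583000 (16q), 99.4% at chr17:80888001-80889000 (17q) and 99.0% at chr20:62818001-62819000 (20q). The last has 17 kept CpGs and stood at 97.7%, 97.2%, 97.4%, 95.2%, 96.6%, 98.2%, 99.2% and 98.7% in passage order. These tiles were chosen for their late level, so no test is given. The kept tile at 19q lies 400.3 kb from the arm end and the loss on the same end, at chr19:58868001-58869000, 250.3 kb from it.

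Most of the promoters that could be placed at the arm ends were unmethylated at the start and stayed so. Promoter sequences from RefSeq were placed on the listed CpGs by the spacing of their CpGs. Placement needed at least 8 listed CpGs in the 300 bases, so promoters with fewer were left out in advance. Promoters farther in were not placed, so the counts have no counterpart there. In the end windows, 403 placed promoters of 360 genes held at least 3 kept CpGs. Of these, 371 promoters of 332 genes started under 10%, with a median of 0% at passages 27 and 28 and 0% at passages 6 to 8. Their highest late level was 8.11%, and 0 of 371 reached 10%. Another 13 started at 10 to 50% and 19, of 18 genes, at 50% or more. Among those 19, 8 lay in a tile called as a loss, in 7 tiles since a pair of them shares 1, where losses made up 50.1% of tested end tiles and 34% of all tested tiles. Of the 19, 0 lay in a tile called as a gain, and 14 still stood at 50% or more at passages 27 and 28. The genes named next were chosen after their values were seen.

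The largest falls among named protein-coding genes were at MOV10L1 and FTCD, whose sequences are printed above. MOV10L1 encodes an RNA helicase needed in mouse for making the piRNAs of the male germ line. Its 5 measured CpGs, in the tile chr22:50528001-50529000 (hg19), stood at 96.5%, 96.2%, 98.3%, 95.6%, 95.2%, 84.2%, 53.7% and 23.5% in passage order. The tile changed by -69.3 points (limma-moderated quasi-binomial fit, adjusted p = 7.11e-07). FTCD encodes a liver enzyme of histidine breakdown and folate metabolism. Its 3 measured CpGs, in chr21:47575001-47576000, stood at 82.2%, 92.1%, 90.7%, 100%, 95.7%, 74.3%, 47.4% and 20.9%, and the tile changed by -58.4 points (limma-moderated quasi-binomial fit, adjusted p = 0.000134). At both promoters the 3 latest libraries were the lowest.

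NXN, which encodes the redox protein nucleoredoxin, and LRRK1-AS1, a transcript antisense to the kinase gene LRRK1, fell less far. The 4 CpGs of the NXN promoter (chr17:767001-768000) averaged 63.4% at passages 27 and 28 against 90.1% ± 3.36 at passages 6 to 8 (SD, n = 3), with a tile change of -25.9 points (limma-moderated quasi-binomial fit, adjusted p = 0.00522). The 10 CpGs of the LRRK1-AS1 promoter (chr15:101593001-101594000) averaged 52.3% against 89.3% ± 3.43 (SD, n = 3), with a tile change of -44.9 points (same fit with limma, adjusted p = 2.08e-07). SLC16A3, which encodes a lactate exporter, started lower. Its 6 CpGs (chr17:80192001-80193000) stood at 32.6%, 48.5%, 52.3%, 13.95%, 14.9%, 18.5%, 9.32% and 0.877% in passage order, with a tile change of -38.2 points (same fit with limma, adjusted p = 8.83e-05).

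Other promoters kept their methylation. CETN1, which encodes a centrin of the testis and of ciliated cells, stood at 100%, 97.5%, 83.3%, 100%, 93.4%, 94.1%, 88.5% and 88.0% over the 3 CpGs in capitals above (chr18:580001-581000), and its tile change of -9.73 points did not pass the test (same fit with limma, adjusted p = 0.160). CHL1, which encodes a neural cell adhesion molecule, averaged 81.0% at passages 27 and 28 against 78.6% ± 8.20 at passages 6 to 8 (SD, n = 3; chr3:239001-240000). ANHX, a homeobox gene, averaged 83.0% against 92.0% ± 3.70 (SD, n = 3; chr12:133812001-133813000), and its tile change of -7.01 points did not pass the test (same fit with limma, adjusted p = 0.133). At VIPR2, which encodes a receptor of vasoactive intestinal peptide, 7 CpGs (chr7:158937001-158938000) averaged 40.8% against 46.6% ± 1.41 (SD, n = 3). Its lowest library was passage 17, at 16.7%, so the levels did not follow passage.

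**Figure D5:**
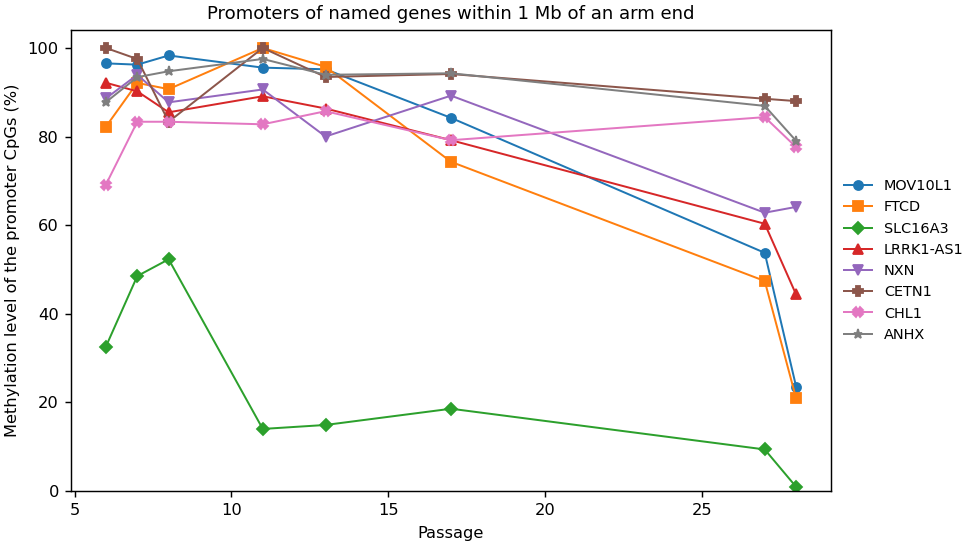
Methylation level (%) by passage over the measured promoter CpGs of 8 named genes within 1 Mb of an arm end. Each point is 1 library. MOV10L1 and FTCD stand at 23.5% and 20.9% at passage 28, while CETN1, CHL1 and ANHX stay at 69.1% or more in all 8 libraries.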

How the data were processed

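CpG methylation by RRBS was analysed in 8 libraries of HUES64 cells with DNMT3A and DNMT3B knockouts, 1 per passage. Positions are those of hg19, per the submitters' processing notes, and are counted from 1. The authors deposited methylated and total reads per CpG in the fourth column and, in the fifth, a score of 1000 times the methylated share, which equalled the rounded share throughout and was set aside. For the aligner, the caller, duplicate removal, coverage filters and the placing of reads from repeated sequence, the entry is: not given in the sources used here. The lowest listed coverage was 1 read.

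A CpG on an autosome was kept if no library had fewer than 5 reads on it, and reads were pooled in 1000-base tiles that hold 3 or more kept CpGs. Distance ran from the first or last CpG listed in any library. End tiles were matched to tiles 5 to 10 Mb from the same end by 7 classes of start level (limits at 10, 20, 40, 60, 80 and 90%) and 4 of listed CpGs (limits at 10, 20 and 35). Means gave each tile the same weight. Slopes on passage were tested by two-sided exact permutation of Pearson's r, with Benjamini-Hochberg adjustment over 15 pooled slopes, 38 arm ends with at least 10 matched tiles, or 16 chromosomes. Each tile with at least 10 reads of each state was fitted by quasi-binomial regression on passage over all 78387 tested tiles, with dispersion at least 1 and moderated by limma's squeezeVar, and a two-sided F test. Scripts were tested on simulated data. Tools were Python 3.11.15, numpy 2.4.6, scipy 1.17.1, pandas 2.3.3, R 4.3.3 and limma 3.58.1.

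The end tiles, the classes and the tests were chosen with earlier results of these data known. Named tiles were the 6 called losses with the largest fall, the called gains up to 8, and the 6 with the highest late mean among tiles of 5 or more CpGs and a start of 80% or more. Named arm ends were the 4 of most negative and the 4 of most positive slope; other ends are named beside their range. No hg19 annotation was used, so tiles carry no gene names. Instead, 3452 RefSeq promoter sequences of build GRCh38.p14 from near the chromosome ends were set against the listed CpGs by their spacing; 510 had 1 position, with at least 8 listed CpGs, and 500 of those shared the shift of their neighbours within 10 bases. No promoter on chromosome 8 was analysed here. Sums of reads cover counting error only, since bisulfite reads without molecular identifiers are not independent molecules. Alternatives changed the coverage minimum, CpGs per tile, an upper coverage limit, the libraries, the passage scale, the level of a tile, both windows, the classes, the weights, the source of inner tiles and the rule for a call.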

Additional observations from a re-analysis of the deposited data

Results flagged for a closer look

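On 7 chromosomes the p and q ends differed in how fast they fell relative to their own inner tiles, by an exact permutation test of the difference itself over 8 libraries with adjustment over 16 chromosomes. The slope of the p end minus that of the q end was 0.615 points per passage on chromosome 6 (adjusted exact permutation p = 0.00159), 0.607 on chromosome 18 (adjusted exact permutation p = 0.00427) and 0.162 on chromosome 17 (adjusted exact permutation p = 0.0445). It was -0.586 on chromosome 7 (adjusted exact permutation p = 0.00159), -0.469 on chromosome 8 (adjusted exact permutation p = 0.00119), -0.350 on chromosome 11 (adjusted exact permutation p = 0.0134) and -0.242 on chromosome 5 (adjusted exact permutation p = 0.0247). With 1 library left out in turn, 4 to 7 chromosomes were called. Other choices moved the count more, from 0 to 11 over all alternatives. It was 3 of 8 with a minimum of 10 reads, 3 of 16 over passages 6 to 17 and 11 of 15 with at least 5 CpGs. Each difference rests on the inner tiles of both ends as well as on the ends themselves.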

How the results depend on the processing

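No paired analysis was possible because there is 1 library for each passage. The matched slope stayed negative under the alternatives run, at -0.268 to -0.0826 points per passage, except against tiles 2 to 5 Mb in. There it was 0.0220, with 0.0128 unmatched, 0.0309 for starts of 80% or more and 0.0384 for starts of 20 to 80%; in that comparison 9 arm ends fell faster and 10 more slowly. There, slopes were also positive at 125 to 250 kb (0.0994), at 250 to 500 kb (0.0453), with 3 to 9 listed CpGs (0.0644) and with 20 to 34 (0.0254). Against tiles 10 to 15 Mb in, signs turned within 125 kb (-0.0645) and at 7q (-0.0582). With finer classes (0.00232) or each arm end given the same weight (0.0278) the slope of the densest tiles turned, and with equal weight that at 125 to 250 kb did too (0.0448).

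Coverage limited what could be called. At 10 reads, 7 of 25 ends fell faster, 727 of 1370 end tiles lost methylation (53.1%, against 47.6% of all tested tiles, a narrower gap than 50.1% against 34%) and 3 gained it, and the slope for starts of 80% or more was -0.0747. At 20 reads, 133 end tiles remained, the unmatched slope was 0.0571 (exact permutation p = 0.0613, n = 8), losses were 22 of 125 (17.6%, against 23% of all tested tiles, so that the end share was the lower) and gains 0, with 0 also at an unadjusted p under 0.05 in the quasi-binomial fit. With only 6 matched tiles, no matched slope and no arm end was fitted there. With at least 5 CpGs, 1 of 36 ends fell more slowly, and 1707 of 3151 end tiles were losses (54.2%, against 39.9% of all) and 3 gains. Thinned reads gave losses in 49% of end tiles and 31.5% of all.

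Over passages 6 to 17, 4 ends fell faster, losses were 932 of 5251 (17.7%, against 10.5% of all), gains 13, and the slope for starts of 80% or more was -0.0560. Slopes turned there at 125 to 250 kb (0.0227) and in the tiles chr10:679001-680000 (3.46 points), chr7:539001-540000 (7.55), chr16:867001-868000 (-5.19) and chr18:77331001-77332000 (-8.45). Over passages 11 to 28, 0 ends fell faster and 0 more slowly by exact permutation, against 12 and 1 at an unadjusted p under 0.05, since 5 libraries allow no smaller p than 0.00833. Windows of 0.5 and 2 Mb held 930 and 6299 losses (43.6% and 54.3% of tested tiles, against 34% of all) with 3 and 11 gains. Gains were 17 with no minimum change, 2 at 20 points, 2 with limma on logit levels and 2 with no minimum of reads. Leaving out 1 library in turn gave 15 to 19 ends that fell faster, 2 to 3 that fell more slowly, 2154 to 2733 losses, 3 to 6 gains and matched slopes of -0.177 to -0.168. The 6 named losses were called in each of these.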
